A study of Mus musculus with 8 samples.

Results

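The subject is a set of cytokine receptor genes that serve the survival of lymphocytes and the help that T cells give, measured in lymph node cells before and after immunization. The set was listed by name as 10 genes: Il7r, Il2ra, Il2rb, Il2rg, Il4ra, Il6ra, Il6st, Il21r, Il10ra and Ifngr1. The array annotation assigned 19 probe sets to 9 of them, and Il2rg was not analysed here. Across the whole array, 12393 genes had a probe set that the annotation assigned to a single gene.

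The study took RNA of flow-sorted lymph node cells from the inbred mouse strain B10.BR, and 10 µg of total RNA per sample was labelled for Affymetrix mouse arrays. The 8 arrays fall into naive mice (n = 3), immunized mice at day 7 (n = 3) and immunized mice at day 28 (n = 2), all of them B10.BR. The immunogen, the population that was sorted and the age of the mice are not in the labels. Nothing there says that replicates are separate animals, so the p-values measure a spread between arrays that may be technical.

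Cytokine receptors of this family have no kinase of their own. Their signalling chains carry Janus kinases on their inner parts, and a bound cytokine brings chains together so that these kinases activate STAT transcription factors. Several cytokines share chains. IL-2, IL-4, IL-7 and IL-21 all signal through the common gamma chain that Il2rg encodes, and IL-6 and its relatives signal through gp130, the product of Il6st. In lymph nodes, IL-7 keeps naive T cells alive, while IL-2, IL-4, IL-6, IL-21 and interferon gamma shape the response of activated T and B cells.

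Each value is a log2 ratio. It was inferred from the values that the signal of a probe set was divided by its median across the 8 arrays or, for dim probe sets, by a shared floor. A log2 ratio of 0 thus stands for that divisor, a difference of 1 is a doubling, and the ratios carry no level by which one gene could be set against another or a cell type's presence be checked. Differences were tested with limma across all probe sets with 2 or more arrays at a ratio of 1 or higher, and a call means a Benjamini-Hochberg adjusted p under 0.05. This filter kept 11 of the 19 receptor probe sets (57.9%), at least 1 for each of the 9 genes, against 57.6% of all probe sets. A probe set can pass it through the group in which it is high, so the tested probe sets are not a neutral sample of the 19.

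One naive array resembled the day 7 arrays. Naive replicate 1 scored -44.5 on principal component 1, which held 43.7% of the variance, within reach of day 7 at -71.7 to -55.4, whereas the remaining naive arrays scored 64.5 and 85.4 and those of day 28 scored 35.2 and 44.3. The added bacterial and phage control transcripts made the same split, with median log2 ratios from -1.70 to -1.03 at day 7 and of -1.16 on naive replicate 1 (the low spike-in set), and from 0.64 to 1.41 at day 28 and on naive replicates 2 and 3 (the high set). Day 7 can be set against naive replicate 1 inside the low set, and day 28 against naive replicates 2 and 3 inside the high set, and those differences are given beside the receptors they touch. As a measure of RNA quality, Gapdh by its 3' minus its 5' probe set had log2 values from -1.18 to 1.17 at day 7, from -1.09 to 0.025 at day 28 and from 0.17 to 0.57 on the naive arrays. The same measure for Actb ran from -0.42 to 2.76 at day 7, from -1.08 to -0.049 at day 28 and from -0.014 to 0.93 on the naive arrays.

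Il7r was the receptor furthest from its naive level after immunization, but no receptor probe set passed the test in any of the 3 comparisons. Limma called 0 of 11 for day 7 against naive, where the share of all tested probe sets called was 1.17%. It called 0 of 11 for day 28 against naive, with a share of 0.322%, and 0 of 11 for day 28 against day 7, with a share of 1.3%. An unadjusted p under 0.05 was reached by 2 of 11 receptor probe sets in the first comparison (15.5% of all tested), 2 of 11 in the second (6.34%) and 0 of 11 in the last (16.5%). The 2 at day 7 were both Il7r probe sets, and the 2 at day 28 were 1 Il7r probe set and Ifngr1. These comparisons had little resolution for the receptors: the 95% interval of a difference extended by between 0.62 and 2.06 on the log2 scale to either side at day 7 against naive, and by between 0.70 and 2.30 in both comparisons with day 28. The spread between arrays of a group was a median SD of 0.78 for the receptor probe sets and 0.57 for all tested probe sets.

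**Figure D1:**
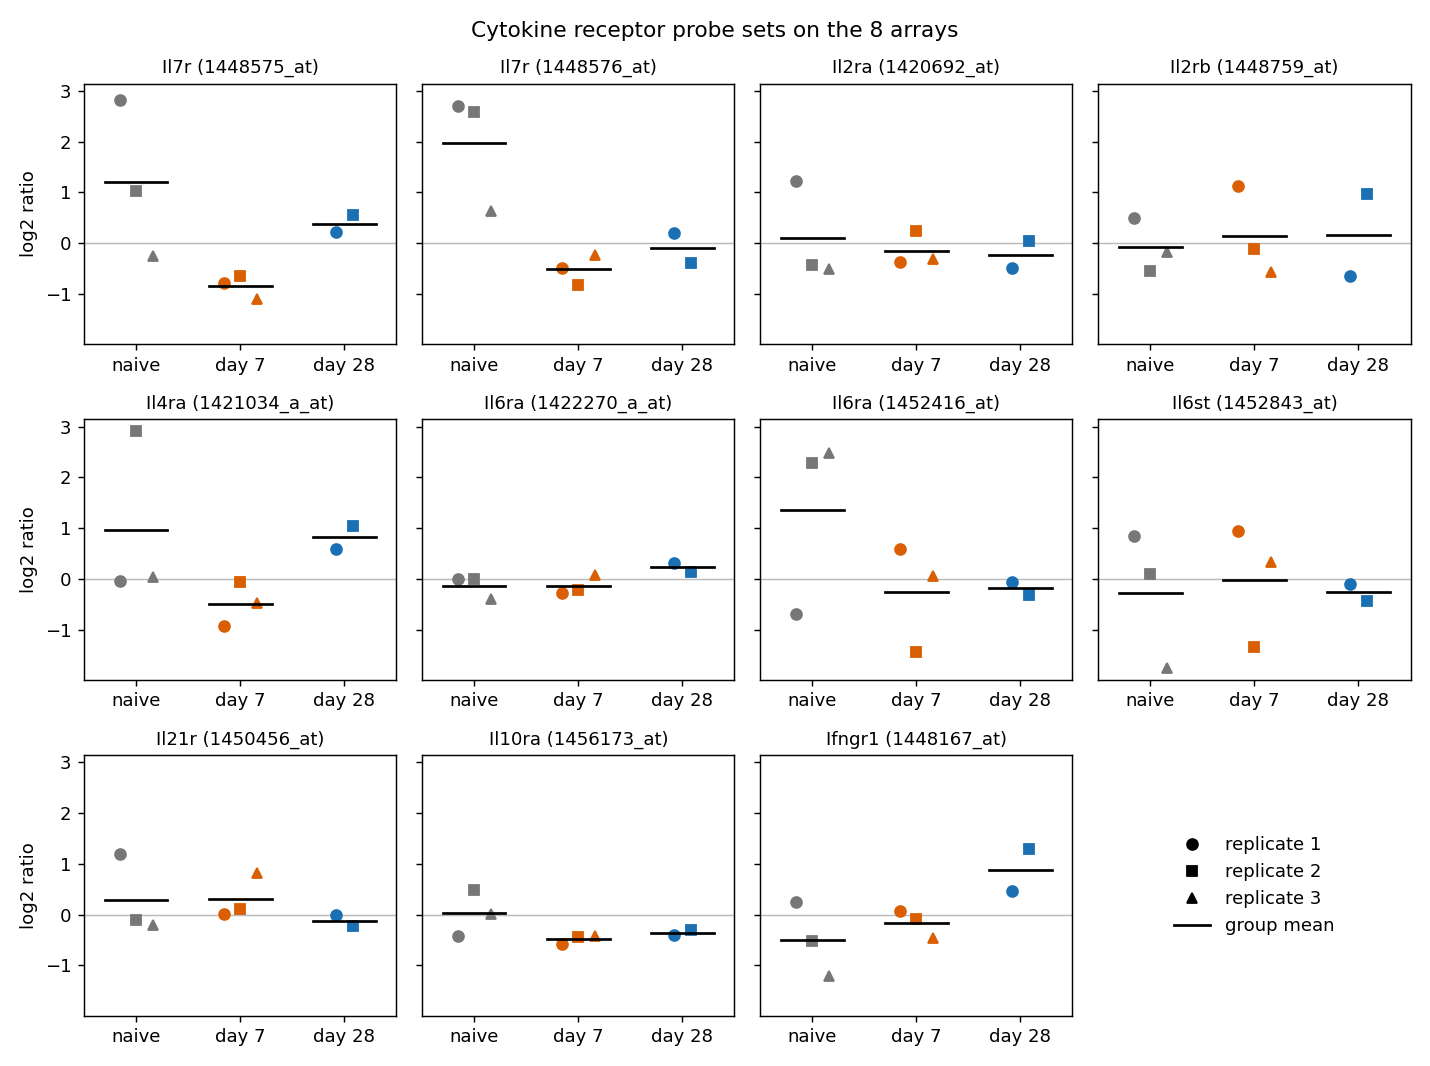
Log2 ratio (vertical axis) of each of the 11 tested receptor probe sets on every array, by group (naive, day 7, day 28). Symbols give the replicate number and black lines the group means; both Il7r probe sets lie lower on all 3 day 7 arrays than on every naive array, and Ifngr1 lies highest on the 2 day 28 arrays.

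Il7r (gene ID 16197) encodes the IL-7 receptor alpha chain, which pairs with the common gamma chain to carry the survival signal of resting T cells. Its probe set 1448576_at had log2 ratios of -0.48, -0.82 and -0.23 at day 7, and 2.70, 2.59 and 0.63 on the naive arrays. The groups did not overlap, and naive replicate 3 lay closest to the day 7 arrays. The difference was -2.48 ± 0.56 (SE, 3 arrays per group, 95% interval -3.79 to -1.18, limma adjusted p = 0.102), a 5.60-fold lower ratio that did not pass. The second probe set, 1448575_at, had log2 ratios of -0.79, -0.65 and -1.11 at day 7, and 2.82, 1.03 and -0.26 on the naive arrays. Again all day 7 arrays lay below all naive arrays, and the difference was -2.05 ± 0.69 (95% interval -3.66 to -0.44, limma adjusted p = 0.223). Without naive replicate 1, the highest naive array, it was -1.24.

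At day 28, Il7r overlapped naive by one probe set and day 7 by the other. Probe set 1448575_at had log2 ratios of 0.22 and 0.55 at day 28, above every day 7 array and within the naive range. Its differences were 1.23 ± 0.78 from day 7 (limma adjusted p = 0.479) and -0.82 ± 0.78 from naive (limma adjusted p = 0.998). Probe set 1448576_at had 0.20 and -0.40 at day 28, below every naive array and mixed with the day 7 arrays. It differed by -2.07 ± 0.63 from naive (95% interval -3.54 to -0.61, limma adjusted p = 0.51) and by 0.41 ± 0.63 from day 7 (95% interval -1.05 to 1.87). The order of the means was thus naive, day 28 and day 7 from high to low in both probe sets, and no neighbouring pair in that order passed the test. Over the 8 arrays both probe sets had a Pearson r of 0.83, as a description.

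Within the spike-in sets the Il7r difference at day 7 was larger, and that at day 28 was found by 1 probe set. In the low set, the day 7 mean minus naive replicate 1 was -3.21 for 1448576_at and -3.67 for 1448575_at. In the high set, the day 28 mean minus the mean of naive replicates 2 and 3 was -1.71 for 1448576_at and -0.0028 for 1448575_at. Of 12 tested T cell genes 0 passed at day 7 against naive (2 were lower at an unadjusted p under 0.05), and the median log2 ratio of the list was 0.65, -0.75 and -0.21 at day 7 and -0.27, 0.99 and 0.37 on the naive arrays. Leaving out naive replicate 3, the lowest naive array, brought 1448576_at past the threshold at day 7 (-3.16, limma adjusted p = 0.0295, when 0.069% of all probe sets were called lower). Leaving out naive replicate 2 gave -2.18 with an adjusted p = 0.336. Over the 17 alternatives tried, the day 7 difference of this probe set stayed between -3.21 and -2.12 and its adjusted p ran from 0.00549 to 0.336. It was also called with quantile normalization (adjusted p = 0.0411, 0.276% of all probe sets called lower) and with array weights (0.00549, 5.57% called lower).

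The genes whose means over tested probe sets followed that of Il7r most closely over the 8 arrays were Mcoln3 (Pearson r = 0.95), Ttc28 (r = 0.93) and Ndrg1 (r = 0.93). Mcoln3 encodes an ion channel of endosomes and lysosomes. Its log2 ratios were -0.37, -0.28 and -0.38 at day 7 and -0.20 and -0.13 at day 28, against 0.34, 0.26 and 0.03 on the naive arrays. It followed the same order as Il7r over a far narrower range. These were picked as the 3 highest of 7825 genes on the same arrays and carry no test.

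The region upstream of Il7r is shown because Il7r had the lowest day 7 values relative to naive among the receptors and because STAT factors, which these receptors activate, bind a palindrome with the letters TTCNNNGAA. This is the sequence of 250 bases before the annotated gene start (RefSeq, GRCm38.p6, chr15:9529877-9530126, minus strand), with the fixed letters of that motif in capitals.
Il7r upstream: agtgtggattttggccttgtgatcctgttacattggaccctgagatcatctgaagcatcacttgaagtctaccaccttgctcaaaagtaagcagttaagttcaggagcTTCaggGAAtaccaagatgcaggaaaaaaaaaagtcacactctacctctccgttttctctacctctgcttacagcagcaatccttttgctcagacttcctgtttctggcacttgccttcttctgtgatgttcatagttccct
The motif reads the same on both strands, and its match starts at position -142 from the gene start. RefSeq windows of 300 bases around the gene start were at hand for 8 of the 10 listed genes, and 1 of the 8, that of Il7r, held a match, against 8.3% of 32851 windows of all genes. A match is a description of these letters and not evidence of a bound site.

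The tested probe sets of both IL-2 receptor chains overlapped between groups. Il2ra (gene ID 16184) encodes CD25, the alpha chain that gives the receptor high affinity and marks activated and regulatory T cells. Its tested probe set, 1420692_at, had log2 ratios of -0.38, 0.23 and -0.32 at day 7, -0.50 and 0.03 at day 28, and 1.23, -0.43 and -0.51 on the naive arrays. Naive replicate 1 stood alone above all others. Relative to naive the differences were -0.25 ± 0.50 at day 7 (95% interval -1.42 to 0.91) and -0.33 ± 0.56 at day 28 (95% interval -1.63 to 0.98). Without naive replicate 1 they turned to 0.31 and 0.24, whereas inside the low set day 7 minus naive replicate 1 was -1.39. The second Il2ra probe set, 1420691_at, never reached a ratio of 1 and ran from -0.34 to -0.03 over all arrays.

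Il2rb (gene ID 16185) encodes the beta chain shared by the IL-2 and IL-15 receptors. Its tested probe set, 1448759_at, had log2 ratios of 1.13, -0.12 and -0.56 at day 7, -0.65 and 0.96 at day 28, and 0.49, -0.55 and -0.17 on the naive arrays. Each group held both a high and a low array, and the differences from naive were 0.22 ± 0.59 at day 7 and 0.23 ± 0.66 at day 28 (limma adjusted p = 0.870 and 0.998). Inside the spike-in sets they were -0.34 at day 7 and 0.52 at day 28. The other Il2rb probe set, 1417546_at, stayed below a ratio of 1 on all arrays and was not tested. Its log2 ratios were -0.10, -0.47 and -0.35 at day 7, and -0.82, -0.74 and -1.04 on the naive arrays, so the groups did not overlap. With no filter on dim probe sets its difference was 0.56 ± 0.17 (limma adjusted p = 0.317). Both probe sets had a Pearson r of 0.52 over the 8 arrays.

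Il4ra and Il21r encode the chains that bind IL-4 and IL-21, cytokines by which helper T cells instruct B cells. Il4ra (gene ID 16190) had log2 ratios of -0.92, -0.06 and -0.48 at day 7, 0.60 and 1.03 at day 28, and -0.04, 2.91 and 0.04 on the naive arrays, by probe set 1421034_a_at. The day 7 arrays lay below all others, with naive replicate 1 just above them and naive replicate 2 far above the rest. The difference at day 7 was -1.46 ± 0.76 from naive (95% interval -3.22 to 0.31, limma adjusted p = 0.398), -0.49 without naive replicate 2 and -0.45 against naive replicate 1 inside the low set. With array weights it was -2.53 and passed (adjusted p = 0.0188), in a setting that called 5.57% of all probe sets lower. A difference further from 0 than the unweighted one means that naive replicate 2, the outlying array, counted for more there. Day 28 differed by 1.30 ± 0.85 from day 7 (95% interval -0.68 to 3.28, limma adjusted p = 0.494) and by -0.15 ± 0.85 from naive, or by -0.66 inside the high set.

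The other Il4ra probe sets did not pass the filter. Probe set 1423996_a_at ran from -1.01 to -0.48. Probe set 1447858_x_at had 2.30 on naive replicate 1, whereas the 7 remaining arrays ran from -1.24 to -0.12. Its day 7 arrays, too, lay below all naive arrays, naive replicate 3 by a small margin, and with no filter the difference was -1.27 ± 0.85 (limma adjusted p = 0.602). The naive array with the high value differed between these probe sets, and the Pearson r of the tested probe set with the others was 0.013 and 0.007.

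Il21r (gene ID 60504) had log2 ratios of 0.01, 0.11 and 0.81 at day 7, -0.01 and -0.22 at day 28, and 1.19, -0.10 and -0.20 on the naive arrays (probe set 1450456_at). Both day 28 arrays lay below all day 7 arrays and inside the naive range or just under it. The differences were 0.012 ± 0.44 at day 7 against naive (95% interval -1.01 to 1.03), -0.41 ± 0.49 at day 28 against naive and -0.42 ± 0.49 at day 28 against day 7 (limma adjusted p = 0.701). The near-zero difference at day 7 rested on single arrays: it was 0.46 without naive replicate 1, and -0.24 without either naive replicate 3 or day 7 replicate 3. Inside the low set it was -0.88, and day 28 minus naive inside the high set was 0.035.

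The IL-6 receptor consists of the binding chain encoded by Il6ra and the signalling chain gp130, and IL-6 is one of the cytokines that promote follicular helper T cells. The tested probe sets of Il6ra (gene ID 16194) disagreed, with a Pearson r of -0.33. Probe set 1452416_at had log2 ratios of 0.59, -1.44 and 0.055 at day 7, -0.057 and -0.31 at day 28, and -0.68, 2.28 and 2.49 on the naive arrays. Naive replicates 2 and 3 stood above all other arrays, and naive replicate 1 lay among the immunized ones. The differences from naive were -1.62 ± 0.89 at day 7 (95% interval -3.68 to 0.43, limma adjusted p = 0.413) and -1.54 ± 0.99 at day 28 (95% interval -3.85 to 0.76, limma adjusted p = 0.962).

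This Il6ra probe set followed the spike-in split on the naive arrays. Without naive replicate 1 its day 7 difference was -2.65 and passed (limma adjusted p = 0.0286), in a setting that called 1.62% of all tested probe sets lower, and it passed with array weights too (-1.99, adjusted p = 0.0363), while inside the low set day 7 minus naive replicate 1 was 0.42. Inside the high set, day 28 minus naive was -2.57. The second probe set, 1422270_a_at, had the smallest spread within groups of the 11 (SD 0.20). It ran from -0.40 to 0.31 over all arrays, with differences of -0.0066 ± 0.27 at day 7 against naive (95% interval -0.63 to 0.62) and 0.36 ± 0.30 at day 28 against naive (95% interval -0.33 to 1.06). Both day 28 arrays lay above all others in this probe set.

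The tested probe set of Il6st (gene ID 16195) varied as much within groups as across them. This probe set, 1452843_at, had log2 ratios of 0.95, -1.33 and 0.32 at day 7, -0.10 and -0.44 at day 28, and 0.84, 0.09 and -1.76 on the naive arrays. The lowest naive and the lowest day 7 arrays lay far below the remaining arrays of their groups, and the differences from naive were 0.25 ± 0.78 at day 7 (95% interval -1.55 to 2.06) and 0.0070 ± 0.87 at day 28 (95% interval -2.01 to 2.03). Inside the spike-in sets they were -0.86 at day 7 and 0.57 at day 28. The 2 untested probe sets were 1421239_at, which had -0.40 and -0.44 at day 28, between -0.89 and -0.58 at day 7 and between -0.98 and -0.77 on the naive arrays, and 1460295_s_at, which ran from -0.54 to 0.04. Both day 28 arrays lay above all others in 1421239_at, and with no filter it differed by 0.46 ± 0.13 at day 28 against naive (limma adjusted p = 0.644).

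Il10ra and Ifngr1 encode the ligand-binding chains for IL-10, which restrains immune responses, and for interferon gamma, the main product of Th1 cells. Il10ra (gene ID 16154) had log2 ratios of -0.57, -0.43 and -0.43 at day 7, -0.39 and -0.31 at day 28, and -0.41, 0.49 and 0.01 on the naive arrays (probe set 1456173_at). All day 7 arrays lay below all naive arrays, though naive replicate 1 by only a small margin. Only naive replicates 2 and 3 reached a ratio of 1, so this probe set passed the filter through the naive group alone. The difference at day 7 was -0.51 ± 0.30 from naive (95% interval -1.21 to 0.20, limma adjusted p = 0.448), and -0.07 against naive replicate 1 inside the low set. It passed with array weights (-0.74, adjusted p = 0.0470). The untested probe sets of Il10ra ran from -0.58 to -0.25 (1437808_x_at) and from -1.17 to 0.10 (1448731_at), and the Pearson r of 1448731_at with the tested probe set was -0.63. With no filter their day 7 differences from naive were -0.11 and 0.16.

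Ifngr1 (gene ID 15979) was the receptor with the highest day 28 values relative to naive. Its only probe set, 1448167_at, had log2 ratios of 0.47 and 1.29 at day 28, 0.08, -0.09 and -0.46 at day 7, and 0.25, -0.52 and -1.21 on the naive arrays. Both day 28 arrays lay above all others, while day 7 and naive overlapped. The difference at day 28 was 1.37 ± 0.49 from naive (SE, 2 arrays against 3, 95% interval 0.24 to 2.50, limma adjusted p = 0.634), a 2.59-fold higher ratio that did not pass, and 1.03 ± 0.49 from day 7 (95% interval -0.10 to 2.16, limma adjusted p = 0.348). Inside the high set, day 28 minus naive was 1.75, and day 7 minus naive replicate 1 inside the low set was -0.41. With each array left out in turn the day 28 difference from naive ran from 0.96 to 1.78.

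**Figure D2:**
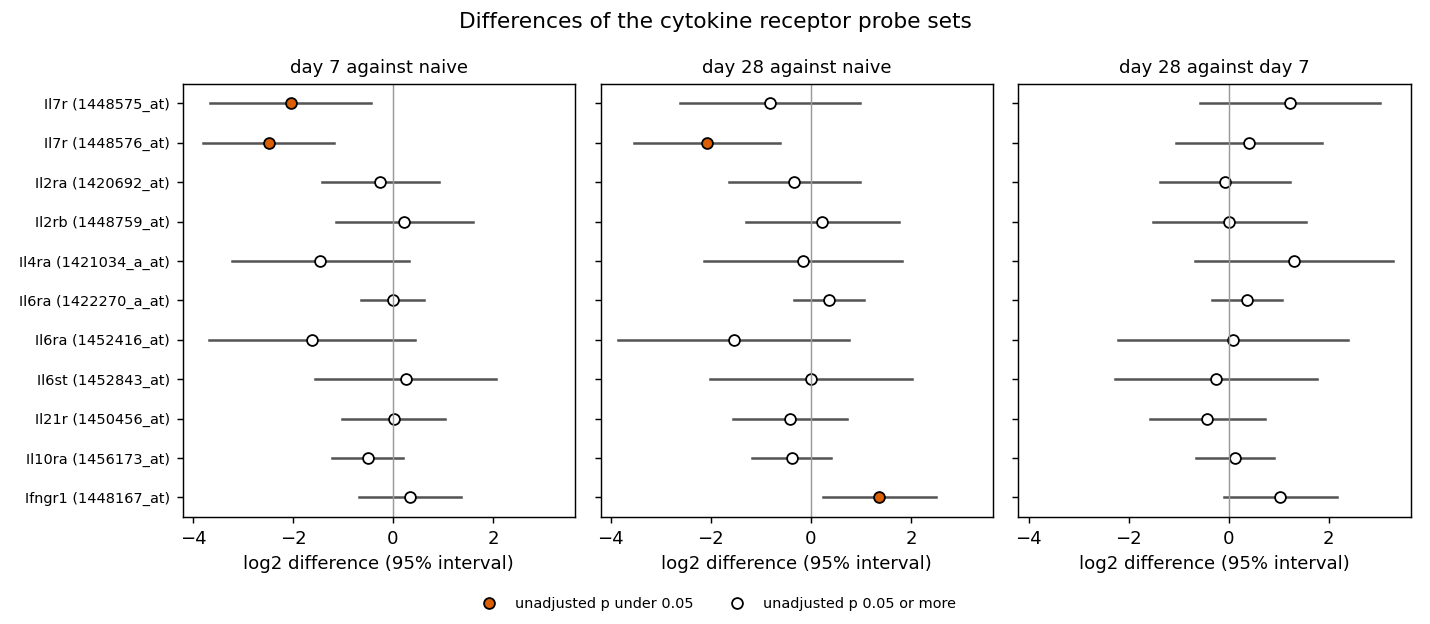
Log2 difference (horizontal axis) of the 11 tested receptor probe sets in each comparison, with its 95% interval from limma; orange points have an unadjusted p under 0.05 and none passed after adjustment. The orange points are both Il7r probe sets at day 7 against naive (-2.05 and -2.48), and 1 Il7r probe set (-2.07) and Ifngr1 (1.37) at day 28 against naive.

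The median log2 difference of the 11 probe sets was -0.25 at day 7 against naive, against 0.11 for all tested probe sets, and 7 of 11 were negative. Day 28 against naive gave -0.33, against -0.049 for all, again with 7 of 11 negative, and day 28 against day 7 gave 0.13, against -0.16, with 8 of 11 positive. Groups did not overlap for 4 of 11 probe sets at day 7 against naive, all of them lower (22.1% of all tested probe sets in either direction and 8.61% lower), for 3 of 11 at day 28 against naive (17.6%) and for 6 of 11 at day 28 against day 7 (44.9%). The 4 were both Il7r probe sets, Il4ra and Il10ra, and in the last pair of genes naive replicate 1 lay just above the day 7 arrays. The Il10ra probe set had passed the filter only through naive arrays. The comparisons share arrays and are not independent of each other.

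Markers of other cells rose after immunization, most of them at day 28. As background, B cells also express several of these receptors, among them Il4ra, Il21r, Il10ra and Ifngr1. Of 14 listed B cell genes 11 were tested as gene means, and 9 rose at day 28 against naive, where 0.511% of all genes rose, with a median log2 difference of 4.31. Their median log2 ratio per array was 3.90 and 2.97 at day 28, between -0.11 and -0.045 at day 7, and between -0.53 and -0.13 on the naive arrays. Cd79b, a chain of the B cell receptor complex, rose by 6.09 on the log2 scale and Cd74, which chaperones MHC class II molecules, by 7.61 (limma adjusted p = 0.0020 and 0.00208). At day 7 against naive 1 of the 11 B cell genes rose, where 1.57% of all genes rose. The median log2 difference of these B cell genes was 0.11, against 0.12 for all genes. The gene that rose was Pou2af1, a transcriptional coactivator of B cells, by 2.77 (limma adjusted p = 0.0258). Cd22 had a difference of 2.82 that did not pass (limma adjusted p = 0.0546).

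Of 6 tested MHC class II genes 4 rose at day 28 against naive, and both CD8 chains, Cd8a and Cd8b1, rose by 3.65 and 3.70. Of 3 tested NK cell genes 1, Nkg7, rose by 4.05 at day 7 (limma adjusted p = 0.00695) and by 3.26 at day 28 (limma adjusted p = 0.0446) against naive. Of all genes, 1.57% and 0.511% rose in these comparisons. Klrd1 had differences of -0.91 at day 7 and 0.96 at day 28, and Gzma of 0.75 and 1.46, none of which passed. Of 7 tested monocyte and macrophage genes 0 passed in limma at day 28 against naive, with 3 higher at an unadjusted p under 0.05. Lyz2 had a difference of 4.23 (limma adjusted p = 0.124). In the same comparison 0 of 12 tested T cell genes passed, with 0 at an unadjusted p under 0.05 and a median log2 difference of -0.26. Cd4 had log2 ratios of -0.91 and 0.20 at day 28 against -0.26, 0.80 and -0.84 on the naive arrays. Fewer cells of a type and less RNA per cell cannot be told apart in such samples, and the part of these markers in the receptor values, and at day 7 in those of Il4, Il21 and Bcl6, was not tested.

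Among the ligands of these receptors, the genes for IL-21 and IL-4 rose at day 7. Both lay below a log2 ratio of 0 on every naive and day 28 array, so they passed the filter only through day 7. With no filter the limma adjusted p at day 7 against naive was 0.0234 for Il21 and 0.0825 for Il4. Of 16 listed ligand genes 9 were tested as means over their probe sets, and 2 rose at day 7 against naive (1.57% of all genes rose and 1.75% were called in either direction), 0 fell and 7 did not pass (median log2 difference 0.41, against 0.12 for all genes). Il21 had log2 ratios of 4.62, 2.97 and 3.20 at day 7, -0.42 and -0.26 at day 28, and -0.44, -0.45 and -0.19 on the naive arrays. All day 7 arrays lay above all others, with a difference of 3.95 ± 0.44 from naive (limma adjusted p = 0.00695), or 4.04 when the fit held the spike-in set as a term, which did not pass (adjusted p = 0.105). It fell by 3.94 on the log2 scale at day 28 against day 7 (limma adjusted p = 0.0118). This second call was lost without either day 28 array (adjusted p = 0.102 and 0.0697), with the spike-in term (0.186) and with the replicate block (0.0639). The Il21r differences were 0.012 and -0.42 in the same comparisons, and neither passed.

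Il4 had log2 ratios of 5.13, 2.21 and 3.01 at day 7, -0.61 and -0.20 at day 28, and -0.70, -0.69 and -0.76 on the naive arrays. It rose by 4.16 ± 0.66 at day 7 against naive (limma adjusted p = 0.0258) and fell by 3.85 on the log2 scale at day 28 against day 7 (limma adjusted p = 0.0499). Il4ra had differences of -1.46 and 1.30 in these comparisons, and neither passed (limma adjusted p = 0.398 and 0.494). The first was -0.49 without naive replicate 2, and the second was -0.21 with the spike-in term. The day 7 call was lost when naive replicate 2 (adjusted p = 0.122), naive replicate 3 (0.106), day 7 replicate 3 (0.111) or either day 28 array (0.0558 each) was left out. With the spike-in term it was lost too (0.230), as with the replicate block (0.0692) and with no filter (0.0825). The day 28 against day 7 call of Il4 was lost without the same arrays (0.0925, 0.0786 and 0.155 for those of naive and day 7). It was lost too with the spike-in term and with the replicate block, where 0 pathway genes were called. Ifng, which encodes interferon gamma, had a log2 difference of 4.37 at day 7 against naive (limma adjusted p = 0.0511) and did not pass. Of the 9 ligand genes 0 passed at day 28 against naive in limma (0 at an unadjusted p under 0.05, 0.524% of all genes called), and the 2 that fell at day 28 against day 7 were Il21 and Il4 (1.19% of all genes fell and 1.71% were called).

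The remaining lists cover the steps inside the cell and other receptors. Over all genes, an unadjusted p under 0.05 was reached by 17% at day 7 against naive, 6.29% at day 28 against naive and 16.4% at day 28 against day 7. Of 10 tested Janus kinases and STAT factors 0 passed in any comparison in limma. An unadjusted p under 0.05 was reached by 2 of them, both higher, at day 7 against naive, and by 0 in the comparisons with day 28. Their median log2 difference was 0.074 at day 7 from naive, 0.44 at day 28 from naive and 0.018 at day 28 from day 7. Over all genes the same medians were 0.12, -0.045 and -0.18. Stat5a, which transmits IL-2 and IL-7 signals, had a log2 ratio of 4.52 on day 28 replicate 2, whereas the 7 remaining arrays ran from -0.099 to 0.087. Of 15 tested genes listed as negative regulators, among them phosphatases and the SOCS proteins, 0 passed in any comparison (at an unadjusted p under 0.05, 1 was higher and 1 lower at day 7 against naive, and 1 higher and 2 lower at day 28 against day 7). The nearest was Ptpn11, a phosphatase, with a day 7 difference of 1.82 (limma adjusted p = 0.0575). Whether it limits or promotes cytokine signals in these cells was not tested.

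Of 11 tested other receptors of the same classes, 0 passed in any comparison (at an unadjusted p under 0.05, 3 were higher and 1 lower at day 7 against naive, and 1 lower at day 28 against day 7). Crlf2, the thymic stromal lymphopoietin receptor chain that pairs with the Il7r product, had log2 ratios of 0.85, 1.56 and 1.38 at day 7 and 0.19, -0.40 and -2.56 on the naive arrays. It lay higher on all day 7 arrays, with a difference of 2.19 that did not pass (limma adjusted p = 0.164). Ifngr2, the second chain of the interferon gamma receptor, had differences of -1.18 at day 7 and -0.69 at day 28 from naive, and neither passed. Of 16 tested signal targets 1 rose at day 7, Bcl6, the transcription factor of follicular helper T cells and germinal centre B cells (3.35 ± 0.50, limma adjusted p = 0.0225). Its call was lost when naive replicate 2 (adjusted p = 0.0936), naive replicate 3 (0.0935), day 7 replicate 1 (0.0691) or day 7 replicate 3 (0.111) was left out. With no filter, when dim probe sets entered its mean, the difference was 1.74 and did not pass (0.0593), and with the spike-in term it was 2.41 (0.218). The call was also lost with the replicate block (0.0573) and with trended and robust variance (0.0521). Bcl2, a survival factor downstream of IL-7, had 0.43 at day 7 and -0.033 at day 28 against naive. Of 8 tested Ras and PI3 kinase adaptors 0 passed in any comparison in limma, with 1 at an unadjusted p under 0.05, higher at day 28 against day 7.

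**Figure D3:**
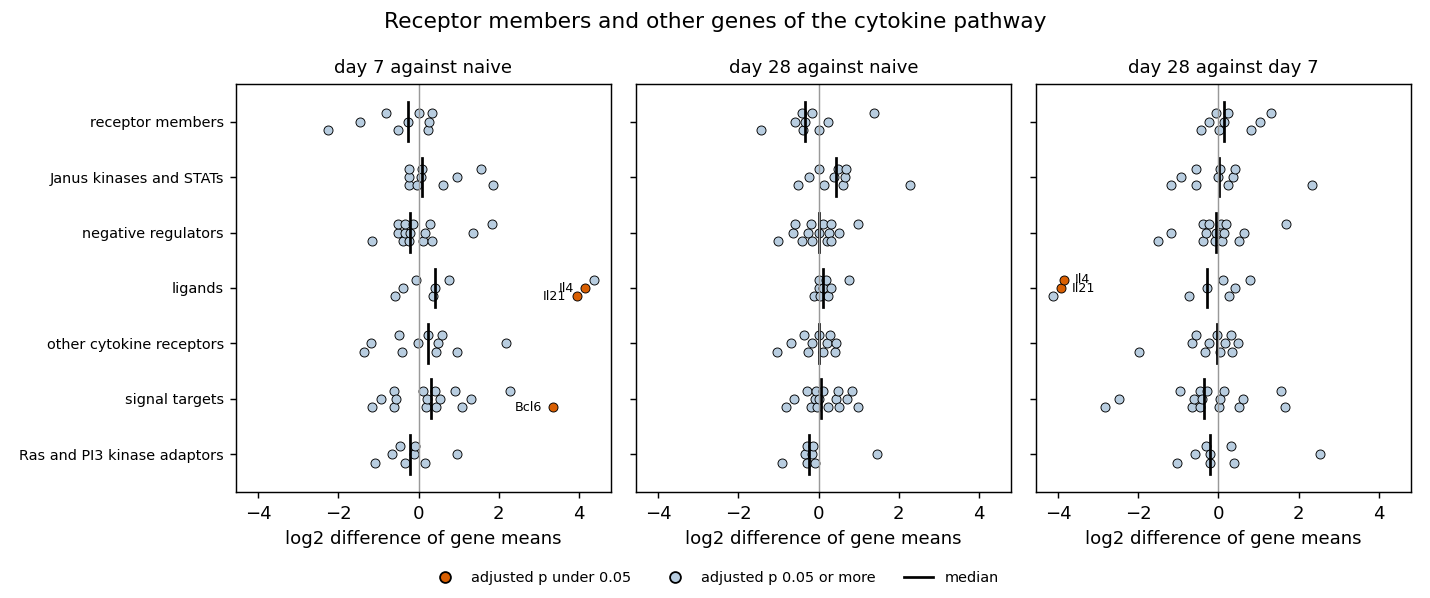
Log2 difference of gene means (horizontal axis) for the 9 receptor genes and for 6 lists of other cytokine pathway genes, in each comparison; each point is a gene, black bars are medians and orange, named points have an adjusted p under 0.05. Il4 and Il21 stand out among the ligands at day 7 against naive (4.16 and 3.95) and at day 28 against day 7 (-3.85 and -3.94), Bcl6 among the targets at day 7, and the receptor genes stay between -2.27 and 1.37.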

How the data were processed

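RNA of sorted lymph node cells was measured on 8 arrays in 3 groups. Per the submitters' processing notes the arrays were processed with GCRMA (version not given there). The deposited values are linear ratios. How each probe set was scaled is not in the sources used here and was inferred: of 22690 probe sets, 47.9% had a median of 1 (tolerance 0.0015) and none had a higher one. Ratios ran from 0.0153 to 117, and the number of arrays limits the precision. A divisor shared by the 8 arrays cancels in a log2 difference. Whether differences of dim genes are understated for other reasons was not tested. Per the array annotation, 20380 of 22626 probe sets (controls left out) had 1 symbol, 691 had several and 1555 had none; genes were named only from the first kind.

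Log2 ratios of the 13042 probe sets that passed the filter were fitted in limma 3.58.1 (R 4.3.3), with a mean for each group and moderated variances, after the code was tested on simulated data. P-values were two-sided and adjusted by Benjamini-Hochberg over all these probe sets. Pathway and marker genes were tested as the mean of their kept probe sets, adjusted over 7825 genes. The members and lists were chosen with earlier results of these data known. By rule, every member probe set, the called list genes, a few fixed markers and the 3 genes most like Il7r were named; Stat5a, Ptpn11, Ifng, Crlf2, Ifngr2, Bcl2 and Cd22 were picked after their values were seen. The alternatives changed the filter, the normalization (quantiles or medians), the variance model, the arrays fitted and their weights, and the probe set taken for a gene, or added a term for the replicate number or the spike-in set. The replicate number was left out of the reported fit because no label pairs arrays by it.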

Additional observations from a re-analysis of the deposited data

How the results depend on the processing

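No receptor probe set was called at day 28 against naive or against day 7 under any alternative. At day 7 against naive the number called was 1 with quantile normalization (Il7r), 5 with array weights (both Il7r, Il4ra, Il6ra 1452416_at and Il10ra, all lower, in a setting that called 5.57% of all probe sets lower), and 0 to 1 with each array left out in turn. The replicate block gave 0 in each comparison. It called 0.123% of all probe sets at day 7 against naive, 0.069% at day 28 against naive and 0.115% at day 28 against day 7. Of all probe sets, 0 were called at day 28 against naive when only the 2 groups compared were fitted. The spike-in term called 0 at day 28 against day 7. The zeros of these settings thus say little about the receptors in particular. Correlations of same-numbered arrays' deviations from their group means ran from -0.365 to 0.171. With so few arrays per group these correlations cannot settle whether the numbers pair the arrays. Pathway genes called numbered 3 at day 7 against naive, and 1 with no filter, 1 with the stricter filter, 17 with array weights, 1 with the replicate block, 0 with the spike-in term and 1 to 9 with an array left out. At day 28 against naive they numbered 0, and 0 to 1 with an array left out. At day 28 against day 7 they numbered 2, and 1 with no filter, 0 with the stricter filter, 7 with quantile normalization, 1 with trended and robust variance, 10 with array weights, 0 with the replicate block, 0 with the spike-in term, 1 with representative probe sets and 0 to 4 with an array left out. Under the stricter filter neither Il4 nor Il21 was tested, which leaves Bcl6 at day 7, and 8 of the 11 receptor probe sets had a value. The settings also differed in the share of all probe sets called. At day 7 against naive it was 1.17% in the reported fit, 22.5% with array weights, 0.415% with no filter and 0.107% with the spike-in term. At day 28 against day 7 it was 1.3% in the reported fit, 12% with array weights and 1.97% with quantile normalization. The pathway counts were not set apart from these shares, and the cause of the other shifts was not tested. Signs of differences that did not pass turned as follows. At day 7 against naive, Il2rb had -0.10 with quantile normalization, -0.053 with array weights, -0.34 with the spike-in term and -0.27 to 0.58 with an array left out. Il6st had -0.12 with quantile normalization, -0.86 with the spike-in term and -0.49 to 0.91 with an array left out, and Il21r had -0.057 with quantile normalization, -0.12 with median centring, -0.88 with the spike-in term and -0.24 to 0.46. Ifngr1 had -0.045 with quantile normalization, -0.41 with the spike-in term and -0.020 to 0.71 with an array left out, Il6ra 1422270_a_at 0.10 with array weights and -0.14 to 0.064, Il6ra 1452416_at 0.42 with the spike-in term and Il2ra -0.56 to 0.31 with an array left out. At day 28 against naive, Il2ra had 0.019 with array weights, 0.24 with the spike-in term and -0.63 to 0.24 with an array left out, Il21r 0.035 with the spike-in term and -0.66 to 0.035, and Il6st -0.16 with quantile normalization, -0.12 with array weights, -0.28 with the replicate block and -0.73 to 0.57. Il2rb and Il4ra ran from -0.57 to 1.04 and from -0.66 to 0.82 with an array left out. At day 28 against day 7, Il2ra had 0.21 with quantile normalization, 0.062 with median centring, 0.051 with array weights, 1.63 with the spike-in term and -0.34 to 0.19 with an array left out, and Il2rb had -0.19 with the replicate block and -0.80 to 0.82. Il6ra 1452416_at had -0.16 with array weights, -2.98 with the spike-in term and -0.51 to 0.51, and Il6st 1.43 with the spike-in term and -0.90 to 0.24. The spike-in term gave -0.21 for Il4ra, 0.92 for Il21r and -0.54 for Il10ra.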
